A study of Mus musculus with 6 samples.

Results

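The clotting system was followed through 10 genes in LSK cells of wild-type (WT) and Ikaros-deficient mice. LSK cells are the lineage-negative, Sca1-positive, c-Kit-positive cells of the bone marrow, among which the stem cells and multipotent progenitors of the blood are found. The genes were Vwf, F2, F10, F13a1 and F5, which code for clotting proteins, Tfpi, which codes for an inhibitor, and F2r, F2rl2, Procr and Thbd, which code for receptors. The 10 genes were selected from earlier results of the same arrays, with their differences between the genotypes known. Their differences, with the intervals and calls that the fit over all probe sets gives them, are therefore a description and not a test. All 10 were measured, by 18 of the 45037 probe sets on the array, and they stand among 18193 genes that could be read from a probe set of 1 gene alone.

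The WT group held 3 samples, each from 1 mouse. The IkL/L group held 3 samples, each from cells of 2 mice that were pooled before sorting. The IkL/L mice carry the hypomorphic L mutation of Ikzf1 on both alleles, a germline mutation that lowers functional Ikaros in other cells as well as in LSK cells. All mice were C57BL/6 and 6 to 7 weeks old, and the labels name no treatment. Since the WT samples come from single mice and the IkL/L samples from pools, genotype and pooling cannot be told apart.

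In clotting, a chain of proteases activates prothrombin (F2) to thrombin, which turns fibrinogen into fibrin. Thrombin also acts on cells, by cutting protease-activated receptors such as F2r and F2rl2. Bound to thrombomodulin (Thbd) it instead activates protein C, a brake on clotting that is presented by the endothelial protein C receptor (Procr). Most clotting factors of the plasma are made by the liver, while von Willebrand factor (Vwf) comes from endothelium and megakaryocytes. In the bone marrow Procr and Vwf are known as markers of stem cells, Vwf of those that lean towards platelets.

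The arrays correlated at 0.9861 to 0.995 over all probe sets, and none was identical to another. On the first principal component WT 2 stood apart from the other WT arrays (-52.7, against -18.6 for WT 1 and 3.6 for WT 3). IkL/L 1, 2 and 3 stood at 20.2, 28 and 19.6, and WT 3 was the WT array nearest to them. Ikzf1 was 11.57, 11.59 and 11.44 on WT 1, 2 and 3 and 10.77, 10.85 and 10.93 on IkL/L 1, 2 and 3, on the log2 scale of the deposited values. Its difference of -0.68 passed the test in limma (adjusted p = 0.0307), lower in 3 of 3 IkL/L samples, and was called in 1 of the 6 fits that leave out 1 array (that without WT 3). The other, dimmer probe set of Ikzf1 gave -0.21 (adjusted p = 0.622 in limma), and the mean of the probe sets gave -0.45. The position of the Ikzf1 probes in the mutated gene was not analysed here. The LSK markers Kit, Cd34, Ptprc and Flt3 were bright in both groups, with a mean over the 4 genes of 11.49 to 11.73 on the WT arrays and 11.15 to 11.37 on the IkL/L arrays. None passed the test, with Flt3 the farthest from 0 (-0.88, adjusted p = 0.132 in limma). The means of all 4 were lower in IkL/L. In Flt3 and Ptprc (-0.22) every IkL/L value lay below every WT value, where 9.59% of all genes did. Sca1 (Ly6a) was not analysed here. RMA gives no detection call. A group mean under 5.832, which is 1 log2 unit above the median of all values, is therefore called dim, and no linear fold is given for it.

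All 10 genes had a higher mean in IkL/L than in WT LSK cells when each was read from its brightest probe set. The differences ran from 0.26 for F2rl2 to 2.39 for F13a1 on the log2 scale, with a median of 0.995, while the median over all genes was -0.021. In 8 genes every IkL/L value lay above every WT value, the exceptions being F2rl2 and Procr. Over all genes, 7.62% were apart in this direction. The adjusted threshold was passed by 5 of the 10 (Vwf, F2, F10, F13a1 and Tfpi), where 0.748% of all genes passed on the higher side. Leaving out WT 1, IkL/L 1 or IkL/L 2 left 1 call (F13a1), leaving out WT 2 or IkL/L 3 left 3, and leaving out WT 3 left 4. Of the 18 probe sets 8 passed, against 0.557% of all probe sets in either direction. As the genes were selected with this contrast in view, nothing is read from these counts. More cells of a type and more RNA per cell cannot be told apart in such bulk samples.

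**Figure D1:**
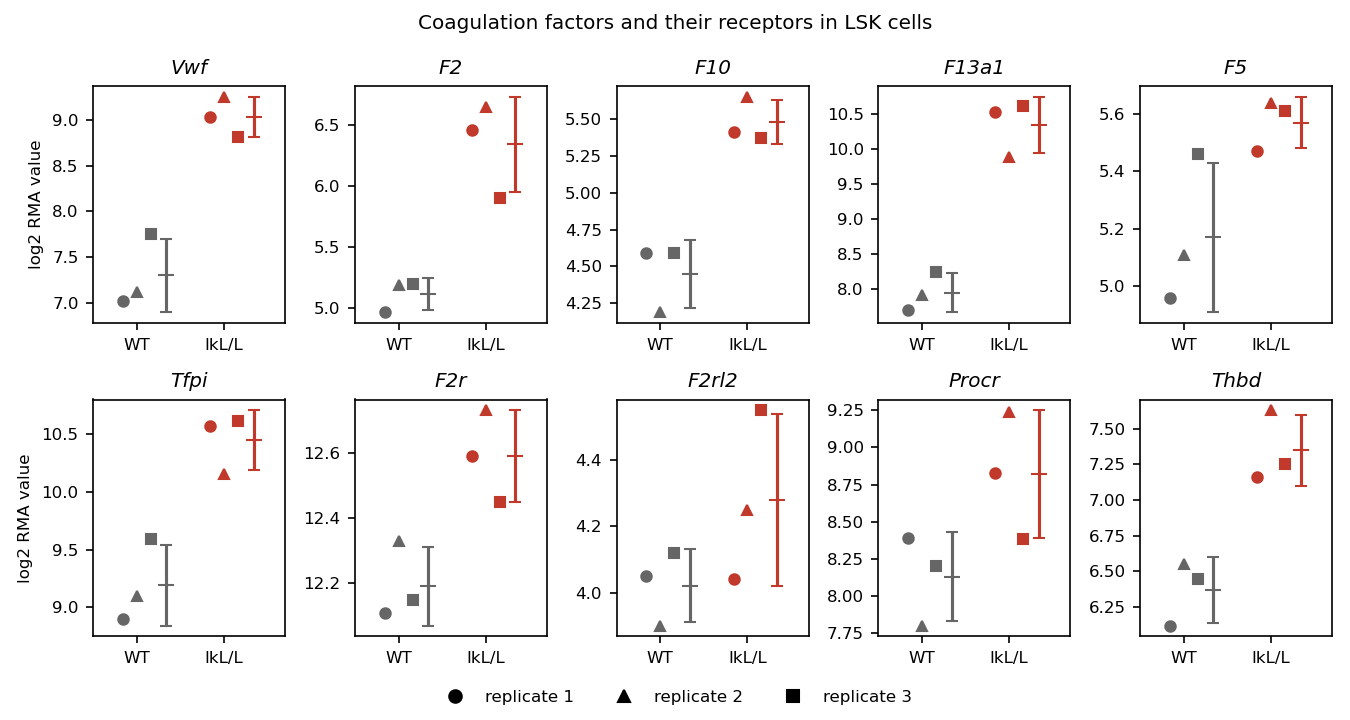
Log2 RMA value (vertical axis, scaled for each gene and not starting at 0) of the brightest probe set of each gene on the WT (grey) and IkL/L (red) arrays. Symbols mark the replicate number and bars the mean and SD of 3 arrays. In 8 genes the groups do not overlap, whereas in F2rl2 and Procr they do.

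Among the clotting proteins the largest difference was that of F13a1, the A subunit of the factor that cross-links fibrin. F13a1 was 7.70, 7.91 and 8.24 on WT 1, 2 and 3 and 10.53, 9.88 and 10.61 on IkL/L 1, 2 and 3. The groups were separated by 1.64 between the lowest IkL/L and the highest WT value, more than the range within either group (0.55 in WT and 0.73 in IkL/L). The means of 7.95 ± 0.28 and 10.34 ± 0.40 (SD, n = 3) correspond to a 5.23-fold difference. It was the 10th highest among the differences of 18193 genes. It stayed between 2.25 (without IkL/L 3) and 2.62 (without IkL/L 2) when 1 array was left out.

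Vwf, the adhesive protein that binds platelets to the vessel wall and carries factor VIII, followed. Its values were 7.02, 7.12 and 7.75 on WT 1, 2 and 3 and 9.03, 9.25 and 8.81 on IkL/L 1, 2 and 3. WT 3 was the highest of the WT arrays and still lay 1.05 under the lowest IkL/L array. The mean went from 7.30 ± 0.40 to 9.03 ± 0.22, a difference of 1.73 with a 95% interval from 1.26 to 2.21.

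F2, prothrombin, was near background in WT cells. It was 4.97, 5.19 and 5.20 on WT 1, 2 and 3 and 6.46, 6.65 and 5.90 on IkL/L 1, 2 and 3. The groups did not overlap, though IkL/L 3 lay only 0.70 above the highest WT array. The difference was 1.22 (95% interval 0.78 to 1.65), and 1.43 without IkL/L 3. Its size is uncertain, because the WT mean of 5.12 ± 0.13 is dim.

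F10, the protease that cuts prothrombin, was dim in both groups. Its brightest probe set read 4.59, 4.19 and 4.59 on WT 1, 2 and 3 and 5.41, 5.65 and 5.37 on IkL/L 1, 2 and 3, a difference of 1.02. Its 2 other probe sets were dimmer still and gave 0.19 and 0.17, with the groups apart by 0.02 and 0.08. The probe sets of F10 thus differed in size, and the larger value rests on 1 of 3. With the mean of the 3 probe sets the difference was 0.46.

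F5, the cofactor of F10, was also dim. It read 4.96, 5.11 and 5.46 on WT 1, 2 and 3 and 5.47, 5.64 and 5.61 on IkL/L 1, 2 and 3. The highest WT and the lowest IkL/L value were 0.01 apart, so that the groups touched. The difference was 0.40 in this probe set (95% interval 0.07 to 0.72) and 0.36 in the other (0.14 to 0.58).

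Tfpi, the inhibitor of the tissue factor pathway and of factor X in its active form, was higher by all 4 of its probe sets. The brightest read 8.90, 9.10 and 9.59 on WT 1, 2 and 3 and 10.57, 10.16 and 10.62 on IkL/L 1, 2 and 3, a 2.39-fold difference of the means. Its groups were 0.57 apart. The other probe sets gave 0.84, 1.11 and 1.25 against 1.26 in the brightest, and their IkL/L arrays lay above the WT arrays throughout. The second brightest had the smallest spread in IkL/L, at 9.50, 9.40 and 9.56, against 8.49, 8.63 and 8.83 in WT.

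**Figure D2:**
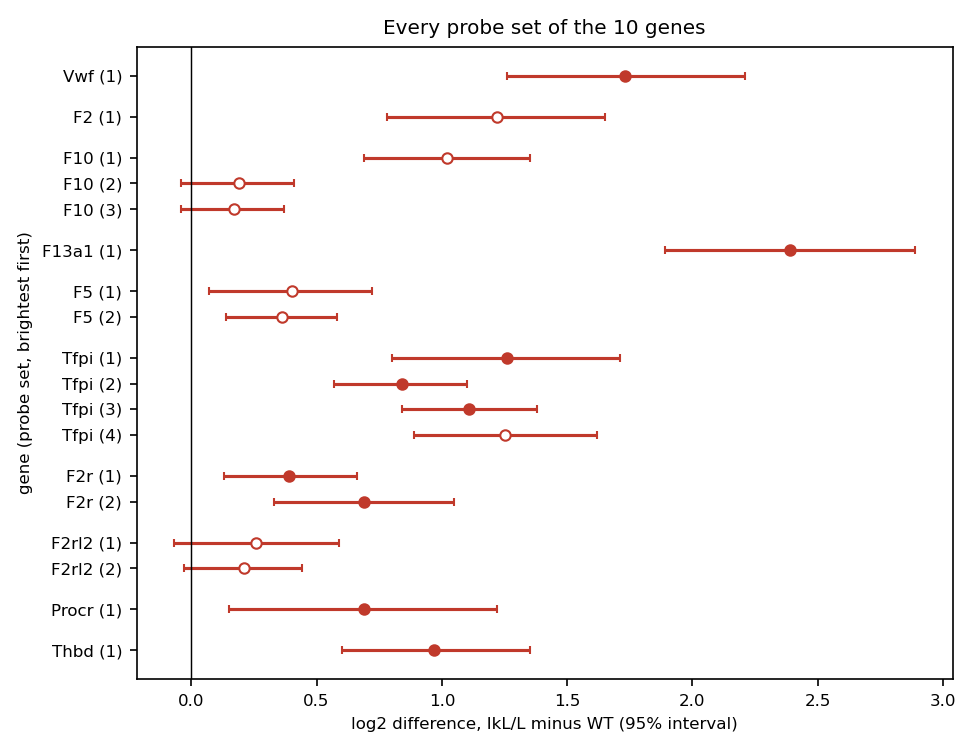
Log2 difference between IkL/L and WT (horizontal axis) of each of the 18 probe sets, with 95% intervals from limma and genes in rows. Open symbols mark probe sets that are dim in at least 1 group. The 4 probe sets of Tfpi lie between 0.84 and 1.26, whereas those of F10 lie at 1.02, 0.19 and 0.17.

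Upstream sequence is shown for F13a1 and Tfpi, since these had the largest differences with both groups above the dim level among the genes with a sequence. RefSeq lists 2 starts for each of them, and the 250 bases before each start are given on the strand of the gene. Capitals mark AGGAA or its reverse complement TTCCT, the motif that the study found under Ikaros peaks.
F13a1, start 1, chr13:37050245-37050494, minus strand, GRCm38.p6: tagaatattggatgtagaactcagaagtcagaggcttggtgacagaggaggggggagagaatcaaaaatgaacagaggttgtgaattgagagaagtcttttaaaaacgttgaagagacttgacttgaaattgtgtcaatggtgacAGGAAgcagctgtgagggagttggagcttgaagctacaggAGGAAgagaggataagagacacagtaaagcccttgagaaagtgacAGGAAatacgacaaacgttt
F13a1, start 2, chr13:37049214-37049463, minus strand, GRCm38.p6: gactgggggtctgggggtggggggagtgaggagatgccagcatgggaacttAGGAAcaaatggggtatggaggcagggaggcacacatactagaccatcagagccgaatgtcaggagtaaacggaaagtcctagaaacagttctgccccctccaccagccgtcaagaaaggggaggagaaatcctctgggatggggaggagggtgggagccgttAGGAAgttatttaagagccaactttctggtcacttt
Tfpi, start 1, chr2:84476760-84477009, minus strand, GRCm38.p6: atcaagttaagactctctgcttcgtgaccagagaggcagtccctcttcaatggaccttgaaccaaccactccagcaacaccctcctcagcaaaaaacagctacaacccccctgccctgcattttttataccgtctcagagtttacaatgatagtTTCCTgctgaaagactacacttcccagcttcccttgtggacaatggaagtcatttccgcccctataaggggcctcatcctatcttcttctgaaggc
Tfpi, start 2, chr2:84474175-84474424, minus strand, GRCm38.p6: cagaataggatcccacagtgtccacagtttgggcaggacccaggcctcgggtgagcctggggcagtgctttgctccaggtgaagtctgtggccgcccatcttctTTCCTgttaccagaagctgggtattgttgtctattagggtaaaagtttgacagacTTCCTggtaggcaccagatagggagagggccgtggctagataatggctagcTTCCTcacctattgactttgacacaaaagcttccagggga

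Of the 10 genes, 8 had such a sequence in the RefSeq table, with 10 starts in all. AGGAA occurred on either strand before 6 of these 10 starts, and before 60.3% of the 32851 starts in the table. It occurred 3 times before the first start of F13a1 and 3 times before the second start of Tfpi, while 9.02% of all starts have 3 or more. F5 and F2rl2 also had it, and F2, F10, F2r and Procr did not in this window. GGGAA, which shares its last 4 bases with AGGAA, occurred before 6 of the 10 starts (56.2% of all). AGATAA, a motif read by GATA factors, occurred before 2 of them, in Tfpi and F2rl2 (9.99% of all). These matches are letters in a window. Binding was not analysed here.

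Of the receptors Thbd differed most. Thrombomodulin was 6.12, 6.55 and 6.45 on WT 1, 2 and 3 and 7.16, 7.63 and 7.25 on IkL/L 1, 2 and 3. The lowest IkL/L array lay 0.60 above the highest WT array, and the means of 6.37 ± 0.23 and 7.35 ± 0.25 (SD, n = 3) give 1.96-fold. Without 1 array the difference stayed between 0.83 and 1.07.

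Procr, which presents protein C to thrombomodulin, varied more within the groups. It was 8.39, 7.80 and 8.20 on WT 1, 2 and 3 and 8.83, 9.24 and 8.38 on IkL/L 1, 2 and 3. IkL/L 3 lay 0.01 under WT 1, so that the groups overlapped at that edge. The difference was 0.69 (95% interval 0.15 to 1.22), and it moved between 0.47 without IkL/L 2 and 0.91 without IkL/L 3. Its range in IkL/L (0.86) was the widest of the 10 genes, while that of Vwf was 0.44.

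F2r, the thrombin receptor PAR1, was bright in both groups, and its probe sets differed in size. Its brightest probe set read 12.11, 12.33 and 12.15 on WT 1, 2 and 3 and 12.59, 12.73 and 12.45 on IkL/L 1, 2 and 3. The groups were 0.12 apart and the difference was 0.39, or 1.31-fold. The second probe set read 9.35, 9.71 and 9.47 in WT and 10.27, 10.42 and 9.92 in IkL/L, a difference of 0.69.

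F2rl2, the receptor PAR3, was dim in both groups. Its brighter probe set was 4.05, 3.90 and 4.12 on WT 1, 2 and 3 and 4.04, 4.25 and 4.55 on IkL/L 1, 2 and 3. The groups overlapped, and the difference of 0.26 had a 95% interval from -0.07 to 0.59. The dimmer probe set gave 0.21 (-0.03 to 0.44), with the lowest IkL/L and the highest WT value both at 3.21. In the RefSeq gene order F2r and F2rl2 lie near each other on chromosome 13, with Iqgap2 as the only protein-coding gene between them.

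Within a genotype the genes did not rank the arrays alike. In WT, array 3 was the highest for 6 of the 10 genes and the lowest for none, and array 1 was the lowest for 7. In IkL/L, array 2 was the highest for 7, including Vwf, Procr and Thbd, whereas F13a1 and Tfpi had their lowest value on it. Relative to the WT mean, F13a1 stood at 1.93 on IkL/L 2 against 2.58 and 2.66 on the others, and Tfpi at 0.96 against 1.38 and 1.43. Procr stood at 1.11 on IkL/L 2 and at 0.70 and 0.25 on the others. The mean over the 10 genes was 6.88, 6.92 and 7.17 on WT 1, 2 and 3 and 8.01, 8.11 and 7.95 on IkL/L 1, 2 and 3, so that WT 2, which stood apart over all probe sets, did not stand apart here. Without it all 10 differences were still above 0.

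**Figure D3:**
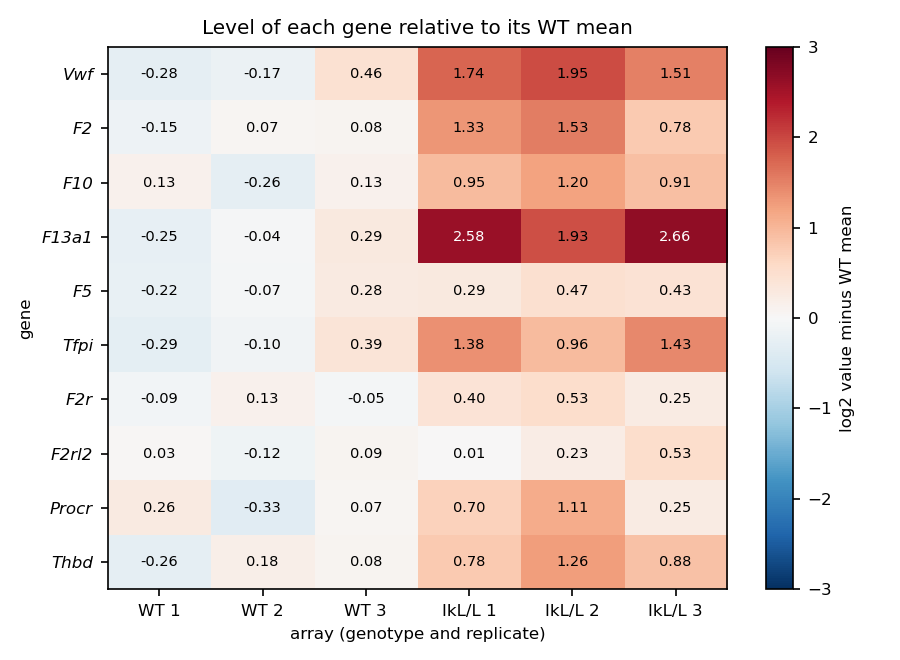
Log2 value of each gene (rows) on each array (columns) minus its mean over the WT arrays, shown by colour and number. On IkL/L 2, F13a1 (1.93) and Tfpi (0.96) have their lowest IkL/L values, while Vwf (1.95), Procr (1.11) and Thbd (1.26) have their highest. Each gene is read from its brightest probe set, and dimmer probe sets of Tfpi are highest on IkL/L 2.

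The rest of the clotting and fibrinolysis system was read from 5 further lists, which ask whether genes that do related work differed too. Of their 50 genes 44 were measured. In limma 2 of the 44 passed the adjusted threshold, both on the higher side (4.55%, against 0.989% of all genes in either direction). Before adjustment 5 on the higher side and 0 on the lower had a p under 0.05. The median difference was 0.04, close to the -0.021 of all genes, and 28 of the 44 were dim in both groups. The values of 7 genes were apart on the higher side and those of 2 on the lower side (Proc and Serpind1, both dim), where 7.62% and 9.59% of all genes were.

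None of the 12 other procoagulant factors passed the test, and all 12 were dim in both groups. Their differences ran from -0.20 for Klkb1 to 0.26 for F7, with a median of -0.01. The 3 fibrinogen chains were among them, with -0.13 for Fga, 0.00 for Fgb and -0.01 for Fgg. F3, tissue factor, gave -0.11 and the starter F12 -0.02. F11 gave 0.11 (adjusted p = 0.792). At such levels a difference could be missed.

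Of 9 anticoagulant genes 7 had a higher mean in IkL/L and 2 a lower one. The groups were apart in 3 on the higher side and in 2 on the lower, against 7.62% and 9.59% of all genes. The 1 that passed the threshold was Anxa5, which codes for a protein that covers phosphatidylserine. It went from 9.88, 9.68 and 9.86 on WT 1, 2 and 3 to 10.45, 10.45 and 10.37 on IkL/L 1, 2 and 3, a difference of 0.62 (adjusted p = 0.0461 in limma), higher in 3 of 3 samples. This call was lost without any 1 of the 6 arrays (adjusted p from 0.0784 to 0.227), though the difference stayed between 0.55 and 0.65. Pros1, the cofactor of activated protein C, was 5.73, 5.74 and 5.72 in WT and 6.20, 6.42 and 6.28 in IkL/L, and missed the threshold (0.57, adjusted p = 0.0578). Serpinc1, antithrombin, gave 0.66 at dim levels (adjusted p = 0.296), and Proc, protein C itself, -0.19 (adjusted p = 0.629).

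Of 8 receptors for thrombin and for platelet adhesion 7 had a higher mean in IkL/L and 1 a lower one. In 2 of them, Itgb3 and Itga2b, every IkL/L value lay above every WT value, where 7.62% of all genes did. The threshold was passed by 1. Itgb3, the beta chain of the platelet fibrinogen receptor, was 7.67, 7.21 and 7.38 on WT 1, 2 and 3 and 9.44, 9.49 and 8.89 on IkL/L 1, 2 and 3, a 3.62-fold difference (adjusted p = 0.00878 in limma), higher in 3 of 3 samples. It lost the call without IkL/L 1 (1.77, adjusted p = 0.0593), and its second probe set, dim at 4.88 and 4.87, gave -0.01. Its partner chain Itga2b gave 0.86 (adjusted p = 0.118). Of the receptor for Vwf, Gp1ba was not measured, and the other subunits did not pass, with 0.48 for Gp1bb (adjusted p = 0.658), 0.44 for Gp5 (0.614) and 0.21 for Gp9 (0.766). F2rl3, the thrombin receptor PAR4, gave 0.30 (0.75). The median of this list was 0.37.

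None of 9 fibrinolysis genes and none of 6 genes of the vitamin K cycle and of factor processing passed in limma, and 0 of either had an unadjusted p under 0.05. Serpinb2, an inhibitor of plasminogen activators, gave 0.18 at dim levels (adjusted p = 0.605) and Ggcx, the carboxylase, 0.19 (0.701), also dim. The urokinase receptor Plaur gave 0.24 (adjusted p = 0.633), the annexin Anxa2 0.14 and its partner S100a10 -0.18 (0.72). Lman1 and Mcfd2, which carry factors V and VIII out of the endoplasmic reticulum, gave 0.16 and 0.19 in their brightest probe sets. The 5 probe sets of Lman1 disagreed in size, from 0.06 to 0.69, and the second brightest was 8.53, 8.30 and 8.73 in WT and 9.10, 8.93 and 9.59 in IkL/L (0.69, adjusted p = 0.263 in limma). Vkorc1, the target of warfarin, was 10.83 ± 0.03 in WT and 10.85 ± 0.04 in IkL/L (SD, n = 3). The medians were -0.07 and 0.16.

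**Figure D4:**
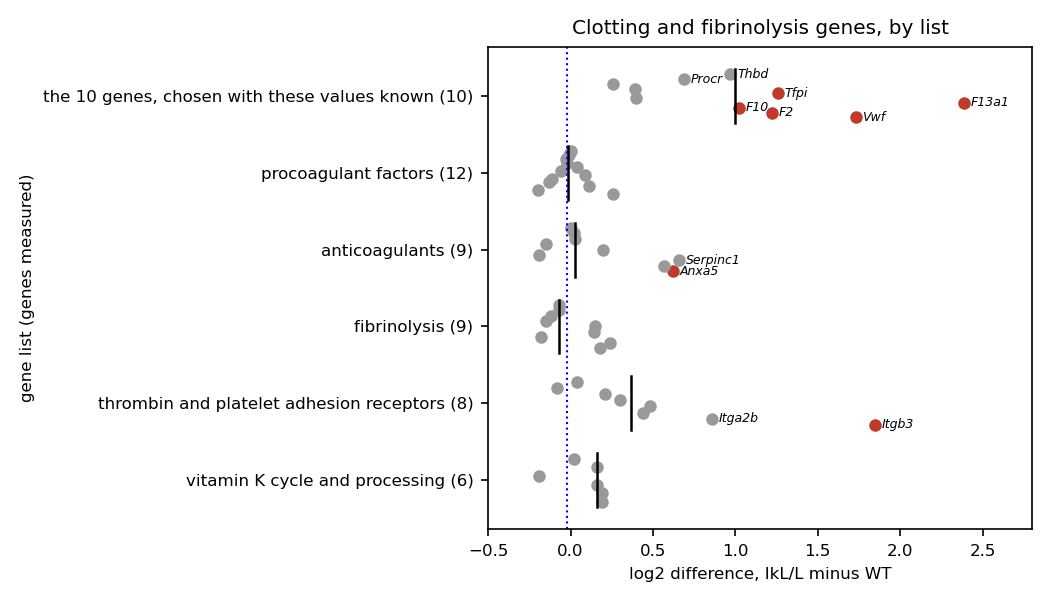
Log2 difference between IkL/L and WT (horizontal axis) of the 10 genes and of 44 other clotting and fibrinolysis genes by list, with 1 point per gene, the median of each list as a black bar and the median of all genes as a dotted line. Red points passed the adjusted threshold. Outside the 10 genes these are Anxa5 and Itgb3.

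Markers of other cell types that use these genes were set beside them. The 4 hepatocyte markers that were measured (Ttr, Ahsg, Alb and Apoa1) were dim in both groups, with differences from -0.10 to -0.04. Their mean level was 4.35 to 4.44 on the WT and 4.23 to 4.39 on the IkL/L arrays. Serpina1a and Trf were not measured, and at such levels a difference could be missed. Of 5 markers of megakaryocytes and platelets none passed. Their mean ran from 6.81 to 7.27 in WT and from 7.16 to 7.52 in IkL/L and overlapped. Itga2b gave 0.86 (adjusted p = 0.118 in limma), with every IkL/L value above every WT value. Pf4 gave 0.53 (0.408) and Gp9 0.21 (0.766), while Gp6 (-0.08) and Ppbp (-0.28) were dim in both groups.

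Endothelium is known to make Vwf, Tfpi, Procr and Thbd. Of 6 endothelial markers, whose median difference was 0.29, 1 passed (Cdh5, 2.50, adjusted p = 0.00274 in limma, dim in WT), Tie1 gave 1.22 (0.208) and Egfl7 -0.48 (0.242), with every IkL/L value below every WT value, and Kdr, Emcn and Cldn5 were dim in both groups. Their mean was 5.61 to 5.95 on the WT and 6.30 to 6.74 on the IkL/L arrays, highest on IkL/L 2. Vwf, Procr and Thbd also had their highest IkL/L value there. Of the probe sets of Tfpi, the brighter ones had their lowest and the dimmer ones their highest IkL/L value there. Monocytes and macrophages also make F13a1, and cells with CD11b or Gr1, which many of them carry, had been depleted before the sort. Of their 6 markers 2 passed in limma, Csf1r (1.76, adjusted p = 0.002) and Cd14 (0.93, 0.021, dim in both groups). Cd68, not dim in either group, gave 1.17 (0.0651), with every IkL/L value above every WT value. C1qa gave -0.87 (0.5), Fcgr1 -0.01 and Adgre1 0.11, all dim in both groups. The mean of the 6 was 5.83 to 6.13 in WT and 6.48 to 6.59 in IkL/L. In all 5 markers of mast cells and basophils every IkL/L value lay above every WT value, where 7.62% of all genes did. Of these 5, 1 passed (Mcpt8, 2.47, adjusted p = 0.00306 in limma), and the lowest difference was 0.42 (Cpa3). Their mean was 6.55 to 7.07 in WT and 7.86 to 8.12 in IkL/L. The mean of 5 stromal markers was 5.66 to 7.09 in WT and 5.22 to 5.51 in IkL/L, and none of them passed. All 5 were lower in IkL/L, from -1.43 (Col1a1) to -0.32 (Lepr), with a median of -1.2. In Col1a1 and Lepr, both dim, every IkL/L value lay below every WT value, where 9.59% of all genes did. On WT 1, 2 and 3 the mean of the 5 was 7.09, 6.26 and 5.66. The part of these cell types in the differences of the 10 genes was not tested.

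**Figure D5:**
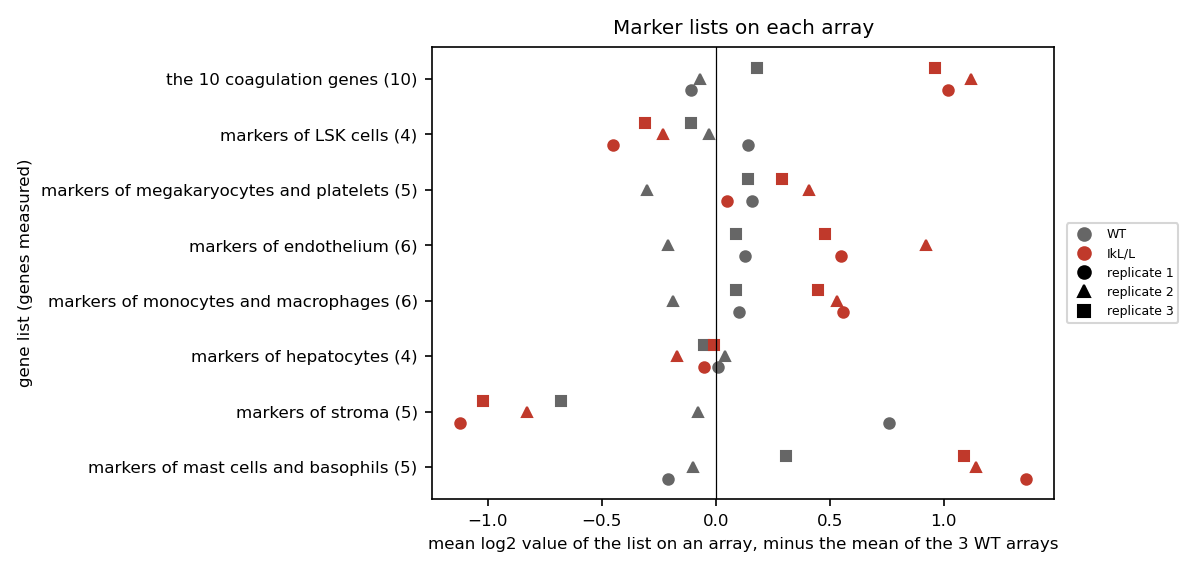
Mean log2 value of each list on an array minus its mean over the 3 WT arrays (horizontal axis), for the 10 coagulation genes and 7 marker lists in rows, with WT in grey and IkL/L in red and symbols for the replicate number. The 10 genes stand at 0.96 to 1.12 on the IkL/L arrays, the endothelial markers at 0.48 to 0.92, the markers of mast cells and basophils at 1.09 to 1.36 and the hepatocyte markers at -0.17 to -0.01.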

How the data were processed

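RNA of sorted LSK cells (100 ng per sample, per the labels) was amplified in 2 cycles and hybridised to Affymetrix mouse expression arrays, 1 array per sample. The deposited values are on the log2 scale, and the authors made them by RMA (no version given) and R 2.8, as the submitters' processing notes name them. RMA removes background, gives the arrays a common distribution and combines the probes of each set, so that a change in total RNA is lost. The study's methods state a joint normalization with thymocyte arrays, and whether the deposited values stem from it is not given in the sources used here.

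Of 45037 probe sets, 34945 have 1 gene in the platform annotation (34741 matched to RefSeq by Entrez number), 932 have several and 9160 are not listed. A gene was read from its probe set with the highest mean over the 6 arrays. IkL/L and WT were compared over all probe sets by limma's moderated two-sided test (version 3.58.1, R 4.3.3), which held genotype and no other term. The p-values were adjusted by Benjamini and Hochberg's method across the whole array, and 0.05 was the threshold. Alternatives were a second quantile normalization, median centring, array weights, a robust fit with an intensity trend, filters at the median level and at a mean of 6, the replicate number as a block, averaging the probe sets of 1 gene, and leaving out each array. The fit was tested on simulated data. Precision is limited by the 3 arrays per group.

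The genes, lists and rules were chosen with earlier results of these data known. The genes named are the 10 genes with every probe set, Ikzf1, and of each further list the genes that pass and up to 3 others with the smallest p. Fga, Fgb, Fgg, F3, F12, F2rl3, Gp9, Anxa2, Serpind1, Lman1 and Vkorc1 were named after their values were seen.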

Additional observations from a re-analysis of the deposited data

How the results depend on the processing

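All 10 genes kept a difference above 0 in each alternative in which they were kept. The median over the 10 genes was 0.995 and moved past the spread between arrays once, to 0.83 when probe sets of 1 gene were averaged, where F10 went to 0.46 and F2r to 0.54. The 5 calls among the 10 became 3 at a mean of at least 6, where 6 genes were kept, 2 with the replicate number as a block (F13a1 and Thbd), and 1 (without WT 1, IkL/L 1 or IkL/L 2) to 4 (without WT 3) without 1 array. With median centring there were 4 (without Tfpi), and 6 (with Thbd) with the intensity trend, array weights or averaged probe sets. Nothing is read from these calls. The 251 calls over all probe sets became 143 with the replicate block and 57 (without WT 1) to 287 (without WT 3) when 1 array was left out. The deviations from the group mean correlated at 0.008, -0.112 and 0.079 for samples with the same number 1, 2 and 3. For samples with unlike numbers they correlated at -0.129 to 0.12. With 3 arrays per group these values cannot show whether samples with the same number were handled together, which was not tested. Among the 44 other genes 2 were called, 1 with median centring, with the filter at the median level and with the block, 4 with the mean of probe sets (Pros1, Anxa5, Itga2b and Itgb3), and 0 (without IkL/L 1) to 1 without 1 array. Their median of 0.04 was 0.203 and 0.227 with the filters, which keep 18 and 16 genes, and 0.031 (without WT 3) to 0.08 (without IkL/L 3) without 1 array. S100a10 went to 0.03 with the mean of its probe sets. The alternatives for Ikzf1 were chosen after seeing the data, and it lost its call with the block (adjusted p = 0.118). The causes were not tested.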
